A study of Mus musculus with 4 samples.

Results

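CC chemokine receptors are G protein-coupled receptors that read gradients of CC chemokines and steer leukocytes into and within tissues. In regulatory T cells (Treg cells, defined by Foxp3 and known for restraining immune responses), Ccr7 is known for positioning in lymphoid organs, while Ccr4, Ccr8, Ccr6, Ccr9 and Ccr10 are known for entry into skin, gut and inflamed tissue. Ccr1, Ccr2 and Ccr3 are also well known from neutrophils, monocytes, eosinophils and basophils. The 9 genes described here are Ccr1, Ccr2, Ccr3, Ccr4, Ccr6, Ccr7, Ccr8, Ccr9 and Ccr10. They were chosen by name from the 20837 genes of the deposited count table. All 9 were found in it, and all 9 passed the filter on low counts together with 13861 genes in all.

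The libraries are labelled as Treg cells of mouse spleen. Both groups carry Foxp3YFP-Cre, a Cre recombinase made in cells that express Foxp3. The 2 WT libraries have the genotype Foxp3YFP-CreKmt2d+/+, with intact Kmt2d, and the 2 cKO libraries Foxp3YFP-CreKmt2dfl/fl, in which Cre can delete Kmt2d, a gene for a histone H3 lysine 4 methyltransferase. The labels give no age or sex for the mice of the Treg samples. The extraction protocol in the labels describes macrophages grown from bone marrow of another knockout, which goes against the tissue, cell type and genotype fields. Whether each library stands for its own mouse is not stated, and the p-values therefore rest on a spread between libraries that may be technical.

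Total counts ranged from 28442416 to 35560491 per library. Levels are CPM (read counts scaled to the library size, with TMM factors), and 3 counts correspond to 0.0864 to 0.103 CPM. Kmt2d had 721 and 704 CPM in WT against 836 and 793 CPM in cKO, called higher with a log2 fold change of 0.19 (edgeR adjusted p = 0.0375), a call kept in 6 of 12 alternatives. Its count also covers exons that Cre leaves in place, and therefore checks nothing about the deletion. The defining T cell markers were present, with Cd4 at 645 to 841 CPM and Lck at 647 to 879 CPM. Foxp3 measured 278 and 250 CPM in WT and 170 and 180 CPM in cKO. It was called lower, with a log2 fold change of -0.59 (SE 0.07, edgeR adjusted p = 0.00493). Summed over 10 pan T cell markers the level was 5566 and 5324 CPM in WT and 4277 and 4643 CPM in cKO. Markers of other leukocytes were present as well, and their sums stand beside the receptors they touch.

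The receptors are related in sequence and partly clustered in the genome. On GRCm38.p6 (RefSeq genes, the assembly called mm10 by the authors), 6 of the 9 genes lie on chromosome 9, 2 on chromosome 11 and 1 on chromosome 17. Ccr9, Ccr1, Ccr3 and Ccr2 lie within 342 kb (chr9:123767211-124109140), and Ccr4 and Ccr8 lie elsewhere on that chromosome. Coding sequences taken from GENCODE M21 had between 46.1% and 67.6% identical bases over the 36 pairs, with a median of 53.0%. The stretches below, from the coding strand, are shown because they hold the most conserved signature of the family, the codons of the DRY motif at the end of the third transmembrane helix, which contacts the G protein. Capitals mark these codons in the 5 receptors whose transcripts passed the test and in Ccr7, the most abundant one.
Ccr1: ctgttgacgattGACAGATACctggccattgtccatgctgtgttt
Ccr2: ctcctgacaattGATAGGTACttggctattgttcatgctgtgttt
Ccr4: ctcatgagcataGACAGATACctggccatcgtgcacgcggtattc
Ccr6: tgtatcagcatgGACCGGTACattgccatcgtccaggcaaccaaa
Ccr7: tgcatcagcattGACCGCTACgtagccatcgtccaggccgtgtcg
Ccr8: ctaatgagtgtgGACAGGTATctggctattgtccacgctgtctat

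The closest pair was Ccr1 and Ccr3. Their longest identical coding run, shown because a short read inside it cannot be placed between the genes, had 47 bases.
Ccr1 and Ccr3: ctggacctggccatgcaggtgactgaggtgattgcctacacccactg
Stretches of 50 bases from the annotated transcripts of Ccr1, Ccr3, Ccr6, Ccr7, Ccr8 and Ccr10 were found in the transcripts of no other gene on the same strand. Of Ccr2, Ccr4 and Ccr9, 1.91%, 0.465% and 2.13% of the stretches were also found in another gene. How reads with several matches were counted is not given here.

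Of the 9 receptors, 2 (Ccr1 and Ccr2) rose, 3 (Ccr4, Ccr6 and Ccr8) fell and 4 (Ccr3, Ccr7, Ccr9 and Ccr10) did not pass in the libraries labelled cKO. A call means an adjusted p under 0.05 over all 13861 genes in edgeR's quasi-likelihood test. Across all tested genes 31.6% were called, 16.5% as higher and 15.1% as lower, so 5 of 9 is more than the background share, but 9 genes are few and the excess was not tested. The median log2 fold change of the 9 was -0.42, beside 0.0003 over all tested genes. The changes of Ccr1, Ccr2 and Ccr8 were at least 2-fold, a size that 8.11% of all tested genes reached with a call. In 6 of the 9 receptors the 2 groups did not overlap, as was the case for 66.0% of all tested genes. The calls of Ccr1, Ccr2, Ccr4, Ccr6 and Ccr8 held in all 12 alternatives run, among them leaving out each library.

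**Figure D1:**
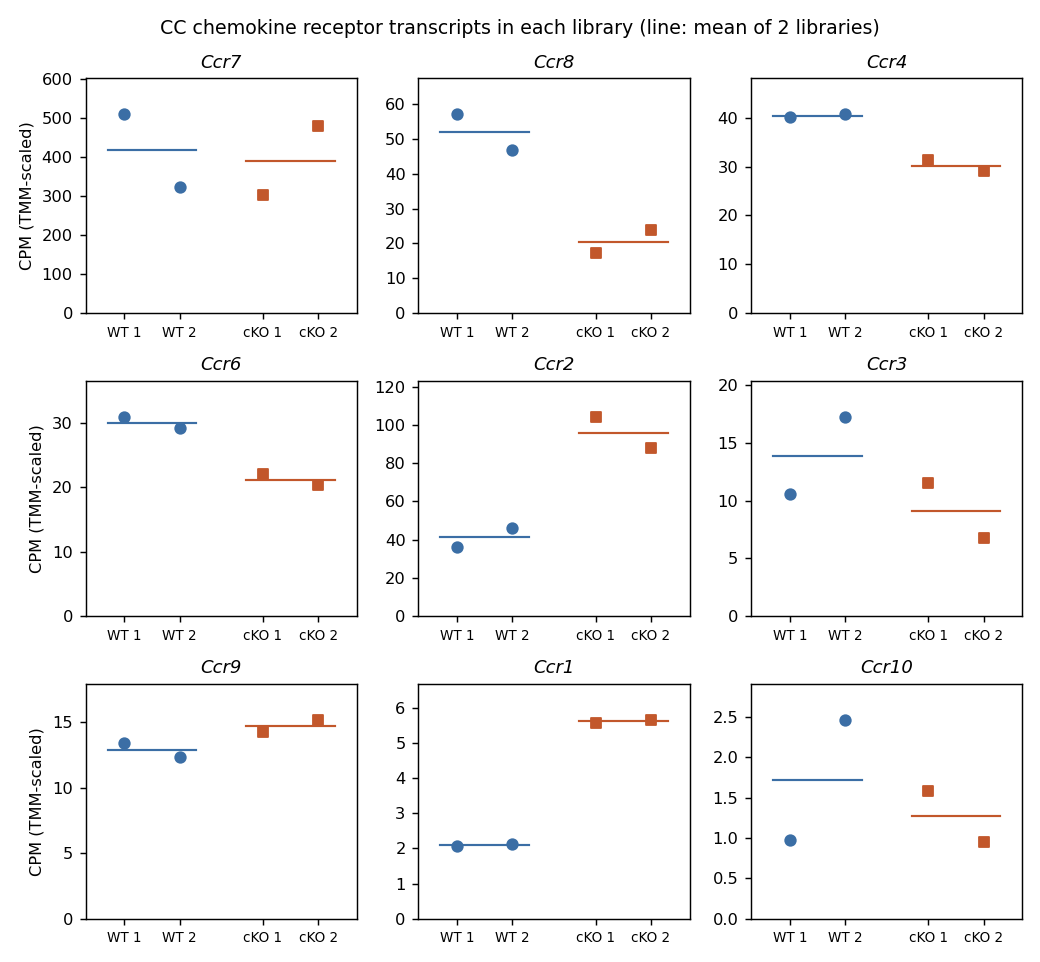
TMM-scaled CPM of the 9 receptor genes in each library (circles: WT, squares: cKO, lines: mean of 2 libraries), each panel on its own axis from 0. Ccr8, Ccr4 and Ccr6 sit lower in both cKO libraries and Ccr2 and Ccr1 higher, while the libraries of 1 group lie far apart for Ccr7, Ccr3 and Ccr10.

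Ccr8, the receptor of Ccl1 that marks Treg cells of tissues and tumours, had the largest fall (chr9:120092133-120094906, plus strand). Its level was 57.2 and 46.8 CPM in WT against 17.2 and 23.7 CPM in cKO. The lowest WT value was well above the highest cKO value, so the groups did not overlap. The means were 52.0 ± 7.37 CPM in WT and 20.5 ± 4.61 CPM in cKO (SD, n = 2), a level 2.53-fold lower, with a log2 fold change of -1.34 (SE 0.17, 95% interval -1.75 to -0.92, edgeR quasi-likelihood adjusted p = 0.00541). Leaving out a library moved the log2 fold change between -1.14 and -1.60. The libraries of a group also differed from each other beyond counting error, by 1.22-fold in WT and 1.38-fold in cKO.

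Ccr4, which binds Ccl17 and Ccl22 and guides T cells to skin and to dendritic cells, fell less and more evenly (chr9:114490316-114505476, minus strand). Its levels were 40.2 and 40.7 CPM in WT against 31.3 and 29.2 CPM in cKO. Both groups were tight and did not overlap, and the difference between libraries of a group was within counting error. The level was 1.34-fold lower, a log2 fold change of -0.42 (SE 0.06, edgeR adjusted p = 0.00693). Ccr6, the receptor of Ccl20 known from Th17 cells, Treg cells and B cells, lies at chr17:8236041-8258519 on the plus strand. Its level was 30.9 and 29.2 CPM in WT against 22.1 and 20.4 CPM in cKO. It was 1.42-fold lower without overlap (log2 fold change -0.50, SE 0.08, edgeR adjusted p = 0.00719), again with libraries of a group inside counting error. The pan T cell markers moved the same way, with 7 of 10 lower, 3 not passing and a median log2 fold change of -0.33. Foxp3 was lower as well, by a log2 fold change of -0.59. The part of these genes' cells in the falls was not tested. In bulk libraries fewer cells of a type and less RNA per cell cannot be told apart. B cells also carry Ccr6. Their markers summed to 110 and 135 CPM in WT and 148 and 262 CPM in cKO, and 2 of 8 rose. That count was 8 without cKO 1 and 1 without any other single library, and the part of B cells was not tested.

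**Figure D2:**
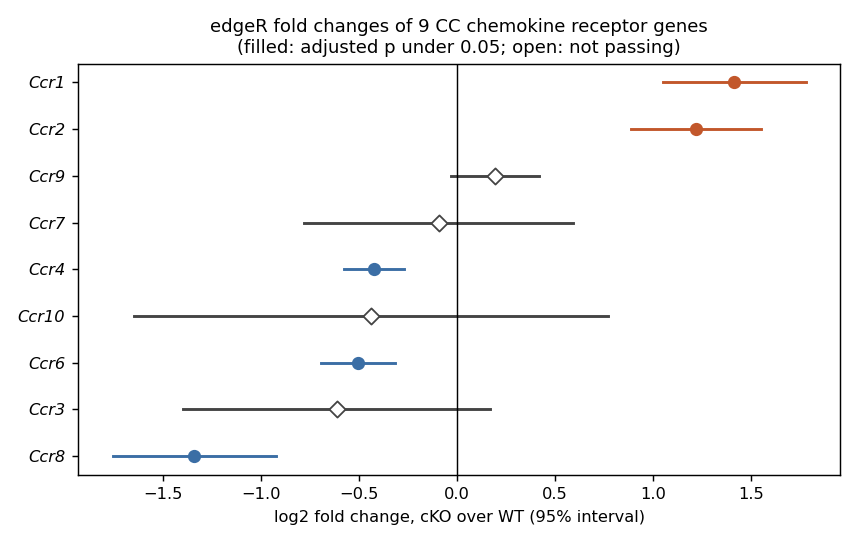
Log2 fold change of cKO over WT for each receptor with its 95% interval, from the edgeR fit (filled: adjusted p under 0.05, open: not passing). Ccr1 and Ccr2 lie between 1.22 and 1.41 and Ccr8 at -1.34, while the intervals of Ccr9, Ccr7, Ccr10 and Ccr3 include 0.

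Ccr2, the receptor of Ccl2 on inflammatory monocytes that effector T cells and activated Treg cells also carry, rose (chr9:124101918-124109140, plus strand). Its level was 36.3 and 46.1 CPM in WT against 104 and 87.8 CPM in cKO. The groups lay far apart, with means of 41.2 ± 6.93 and 95.9 ± 11.5 CPM (SD, n = 2). This is 2.33-fold higher, a log2 fold change of 1.22 (SE 0.13, 95% interval 0.89 to 1.55, edgeR adjusted p = 0.00468). The summed level of 7 monocyte markers followed the same order over the libraries, with 453 and 573 CPM in WT and 1079 and 982 CPM in cKO. Of these markers 6 rose and 1, the growth factor receptor gene Csf1r, did not pass, and none was at 0 in a library. Lyz2 made the largest part of the sum, with 261 and 286 CPM in WT and 584 and 544 CPM in cKO. The ratio between the WT libraries was 1.27 for Ccr2 and 1.26 for the monocyte sum, and cKO 1 exceeded cKO 2 by 1.19-fold for Ccr2 and by 1.10-fold for the sum. Csf1r, with 92.0 and 151 CPM in WT and 134 and 84.1 CPM in cKO, widens the gap of the sum within each group. The near match of the WT ratios therefore rests partly on the marker that did not pass. The summed dendritic cell markers also had the library order of Ccr2, with 73.3 and 84.9 CPM in WT and 134 and 112 CPM in cKO. Of 9 markers of either CD8 T cells or NK cells 8 rose and 1 did not pass (3 rose without WT 1 and 4 without cKO 2), and of 5 tested markers of gamma delta T cells 3 rose. The part of these cells in the rise of Ccr2 was not tested.

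Ccr1, a receptor of Ccl3 and Ccl5 best known from neutrophils, monocytes and basophils, rose from a low level (chr9:123962126-123968692, minus strand). It had 72 and 65 counts in WT and 162 and 195 counts in cKO, or 2.07 and 2.13 CPM against 5.57 and 5.65 CPM. Within each group its libraries were nearly identical, and the groups did not overlap. The level was 2.66-fold higher (log2 fold change 1.41, SE 0.15, edgeR adjusted p = 0.00435), the largest rise among the 9 receptors. All 11 neutrophil markers rose as well, with a median log2 fold change of 2.82 (2.30 without WT 1 and 3.74 without WT 2). Their sum was 75.0 and 188 CPM in WT and 586 and 1276 CPM in cKO, carried by S100a9 and granule genes such as Ngp (10.4 and 37.5 CPM in WT, 127 and 335 CPM in cKO). This sum differed 2.51-fold between the WT libraries and 2.18-fold between the cKO libraries, and Ccr1 differed 1.03-fold and 1.01-fold. Not all neutrophil markers were spread like the sum: the receptor genes Csf3r (13.4 and 13.1 CPM in WT against 29.2 and 27.1 CPM in cKO) and Cxcr2 (2.39 and 2.72 CPM in WT against 9.63 and 8.72 CPM in cKO), named after their values were seen, were nearly level within groups and higher in cKO, as Ccr1 was. The basophil and mast cell markers, of which 7 of 8 rose, summed to 4.35 and 8.01 CPM in WT and 27.5 and 47.7 CPM in cKO, and without WT 1 the calls fell to 4 of 8. The monocyte markers given above, of which 6 of 7 rose, summed to 453 and 573 CPM in WT and 1079 and 982 CPM in cKO. The part of these cells in the rise of Ccr1 was not tested.

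**Figure D3:**
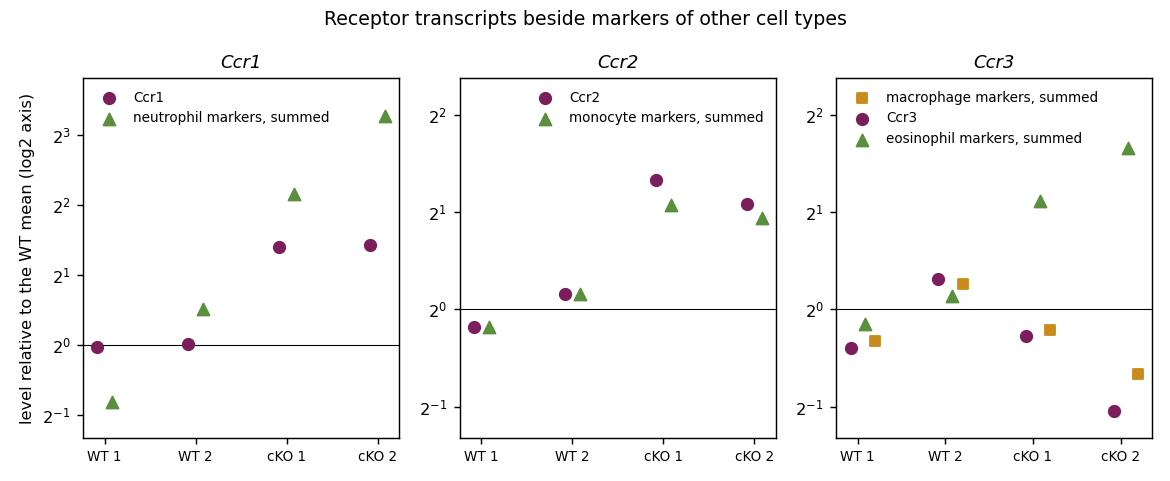
Levels of Ccr1, Ccr2 and Ccr3 in each library relative to their WT mean (log2 axis), beside summed markers of neutrophils, monocytes, eosinophils and macrophages on the same scale. The monocyte sum has the same order of libraries as Ccr2. The neutrophil sum, mostly from S100a8, S100a9 and granule genes, is higher in cKO like Ccr1 and wider within groups. Ccr3 has the order of libraries of the macrophage sum, while the eosinophil sum is higher in cKO.

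The other receptors of blood and gut leukocytes did not pass. Ccr9, the receptor of Ccl25 that guides T cells to the small intestine and is also found on plasmacytoid dendritic cells, lies at chr9:123767211-123783457 on the plus strand. Its level was 13.4 and 12.3 CPM in WT against 14.3 and 15.2 CPM in cKO. The groups did not overlap, but the log2 fold change of 0.19 (95% interval -0.03 to 0.42, edgeR adjusted p = 0.163) did not pass. Of the 7 plasmacytoid dendritic cell markers other than Ccr9, 4 rose, 1 fell and 2 did not pass, and without WT 1 these 5 calls became 2. The annotated Ccr9 gene overlaps Lztfl1, a gene on the other strand with a rise of 0.57 (log2 fold change, edgeR adjusted p = 0.00731). Without strand, reads of the pair cannot be told apart, and the setting used is not stated.

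Ccr10, the receptor of Ccl27 and Ccl28 for skin and mucosa (chr11:101172998-101175443, minus strand), was the scarcest per kilobase in cKO, with 34 and 75 counts in WT and 46 and 33 counts in cKO. Its CPM were 0.980, 2.46, 1.58 and 0.956 in WT 1, WT 2, cKO 1 and cKO 2, so the groups overlapped. The log2 fold change of -0.44 had a 95% interval of -1.64 to 0.77 (edgeR adjusted p = 0.580), which holds a fall of 2-fold as well as no change. The whole Ccr10 gene lies inside Cntnap1 on the opposite strand, which had 0.836, 1.35, 1.24 and 0.666 CPM in the same libraries. The strand setting is not stated, so the Ccr10 counts are uncertain. Plasma cells also carry Ccr10, and of their 6 markers 3 rose, 1 fell and 2 did not pass.

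Ccr3, the eotaxin receptor of eosinophils and basophils (chr9:124017825-124031692, plus strand), had 10.6 and 17.2 CPM in WT against 11.5 and 6.75 CPM in cKO. The groups overlapped, and the log2 fold change was -0.61 (SE 0.32, 95% interval -1.40 to 0.17, edgeR adjusted p = 0.206). The same test without the filter on low counts called it lower (log2 fold change -0.62, adjusted p = 0.0229), while leaving out WT 2 or cKO 2 reduced the difference to -0.22 or -0.27 (edgeR adjusted p = 0.653 and 0.549). Eosinophil markers went the other way. Of 7, 6 rose and 1 did not pass (2 rose without WT 1, 3 without WT 2 and 3 without cKO 2), and their sum was 13.97 and 17.03 CPM in WT against 33.7 and 49.2 CPM in cKO, with Prg2 at 3.72 and 5.41 CPM in WT and 10.4 and 21.1 CPM in cKO. The basophil markers given above also rose. Ccr3 followed the order of the summed level of 9 macrophage markers instead, a comparison chosen after the values were seen. This sum was 301 and 452 CPM in WT and 326 and 237 CPM in cKO. Of the single markers Adgre1, Vcam1 and Mrc1 had this order and the others did not, and Cd5l was highest in cKO 2 (21.7 CPM). Csf1r of the monocyte list had it too (92.0 and 151 CPM in WT, 134 and 84.1 CPM in cKO). None of the 9 macrophage markers passed in the main edgeR fit (3 had an unadjusted p under 0.05), while 4 were called with DESeq2 and 6 in edgeR without a filter. The part of macrophages in the level of Ccr3 was not tested.

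Ccr7, the receptor of Ccl19 and Ccl21 that holds T cells in lymphoid organs (chr11:99144199-99155077, minus strand), was the most abundant receptor and had the smallest log2 fold change. Its level was 510 and 324 CPM in WT against 302 and 479 CPM in cKO. Each group held a high and a low library, and the groups overlapped. The log2 fold change was -0.09 (SE 0.28, 95% interval -0.78 to 0.59, edgeR adjusted p = 0.859). Every library had at least 8788 counts of Ccr7, so counting error was small. The libraries of a group differed by more than that. WT 1 exceeded WT 2 by 1.57-fold (exact 95% counting interval 1.54 to 1.61) and cKO 2 exceeded cKO 1 by 1.59-fold (1.55 to 1.63). Leaving out WT 1 or cKO 1 turned the sign to 0.27 or 0.20, and leaving out WT 2 or cKO 2 gave -0.38 or -0.47, with no call in any of the 4.

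Such a split of both groups was uncommon. Of 9900 tested genes that reached 5 CPM on average, 0.758% differed at least 1.5-fold between the libraries of both groups, and of the 7 receptors with that mean, Ccr7 and Ccr3 did. Ccr7 was high in WT 1 and cKO 2, as were 23 of these genes, and Ccr3 was high in WT 2 and cKO 1, as were 34. Ccr10, below 5 CPM, split like Ccr3, by 2.51-fold in WT and 1.65-fold in cKO. By contrast Ccr1, Ccr4, Ccr6 and Ccr9 differed between libraries of a group by no more than counting error. The rule of 1.5-fold was set after the values were seen. WT 1 and cKO 2 are also the libraries with the larger totals of their groups. Summed erythroid and platelet markers split the same way as Ccr7, with 601 and 217 CPM in WT and 169 and 462 CPM in cKO. These sums came mostly from the globin genes Hbb-bs and Hba-a1. The platelet marker Itga2b was nearly level within groups, at 2.30 and 2.10 CPM in WT and 3.64 and 3.71 CPM in cKO. Ppbp, at 0.403 and 0.197 CPM in WT and 0.275 and 0.550 CPM in cKO, split like Ccr7. The macrophage sum split the way of Ccr3. What part depth or these cells have in the split was not tested.

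**Figure D4:**
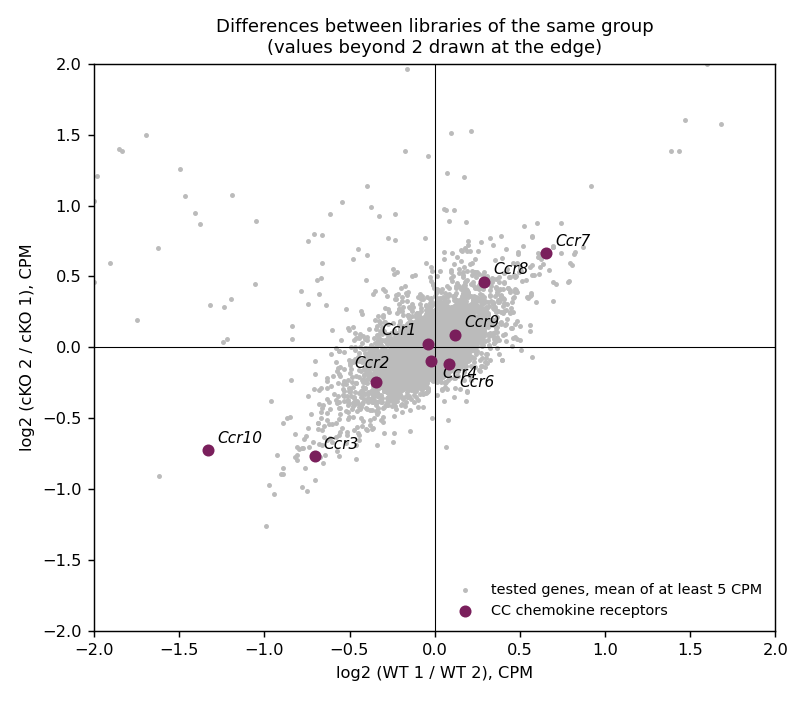
Log2 ratio of WT 1 over WT 2 (x axis) and of cKO 2 over cKO 1 (y axis) for the receptors and for tested genes that reached 5 CPM on average. Ccr7 lies at the upper right, high in WT 1 and cKO 2, and Ccr3 and Ccr10 in the lower left, high in WT 2 and cKO 1, while Ccr1, Ccr4, Ccr6 and Ccr9 sit near the centre.

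Per kilobase of exons, Ccr7 dominated in both groups. In WT its mean was 211 CPM per kb (164 to 258), followed by Ccr8 with 44.2 and then by Ccr4 with 13.08 and Ccr6 with 12.96, whose ranges overlapped. Ccr2 (6.10) and Ccr3 (4.25) came next, and Ccr9 (1.25), Ccr10 (0.997) and Ccr1 (0.743) were lowest, with overlapping ranges for Ccr9 and Ccr10 and for Ccr10 and Ccr1. In cKO Ccr7 again led with 198 CPM per kb. Ccr8 (17.4) and Ccr2 (14.2) followed with overlapping ranges, so that Ccr2 stood above Ccr4 (9.77) and Ccr6 (9.15). Ccr1 moved from the last place to one above Ccr9 and Ccr10. As a share of the summed level of the 9 receptors, Ccr8 took 14.1% and 16.3% in WT and 6.97% and 6.74% in cKO, and Ccr2 took 1.56% and 2.79% in WT and 7.32% and 4.33% in cKO. With the length of the longest transcript in place of the union of exons, Ccr6 (17.1) stood above Ccr4 (14.4) in WT. Ccr9 then had 2.48 CPM per kb in WT and 2.83 in cKO, above Ccr1 (1.98) in cKO as well.

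**Figure D5:**
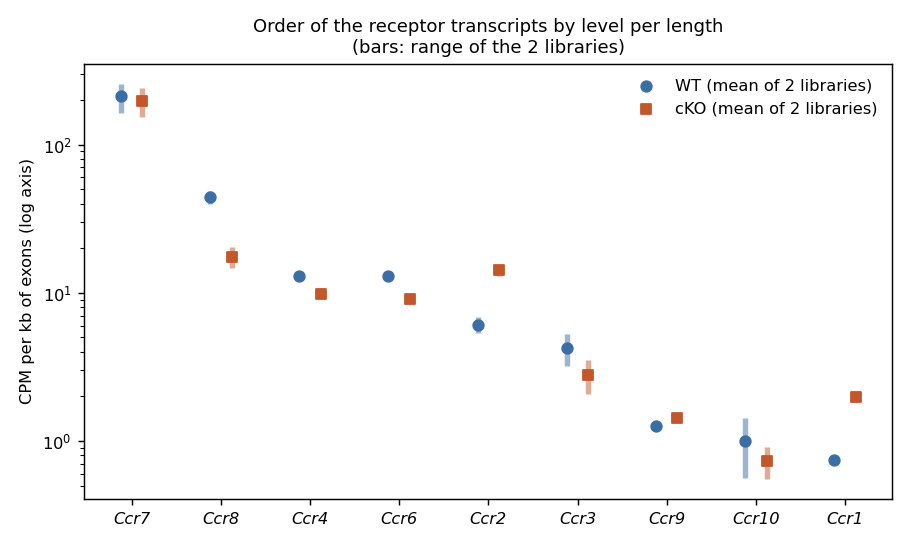
CPM per kb of exons of the 9 receptors on a log axis, in the order of their WT mean (symbols: mean of 2 libraries, bars: range). Ccr7 stands above all others in both groups, and Ccr8 and Ccr2, 44.2 and 6.10 in WT, come together at 17.4 and 14.2 in cKO.

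The 250 bases before an annotated RefSeq transcript start are shown for Ccr8 and Ccr2, the 2 receptors with a mean of at least 5 CPM that moved furthest and in opposite directions. Capitals mark matches to AGATAA, the GATA motif, on either strand. Both windows are 5′ to 3′ on the strand of the gene, which is the plus strand, in GRCm38.p6. For Ccr8 that start is the first base of the gene. For Ccr2 it belongs to a transcript that begins further downstream, so the Ccr2 window lies inside the gene span given above.
Ccr8, chr9:120091883-120092132: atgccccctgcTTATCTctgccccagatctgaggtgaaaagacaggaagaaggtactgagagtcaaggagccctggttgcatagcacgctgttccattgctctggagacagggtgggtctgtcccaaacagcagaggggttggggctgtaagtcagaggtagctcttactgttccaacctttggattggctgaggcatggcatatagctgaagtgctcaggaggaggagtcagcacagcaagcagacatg
Ccr2, chr9:124101933-124102182: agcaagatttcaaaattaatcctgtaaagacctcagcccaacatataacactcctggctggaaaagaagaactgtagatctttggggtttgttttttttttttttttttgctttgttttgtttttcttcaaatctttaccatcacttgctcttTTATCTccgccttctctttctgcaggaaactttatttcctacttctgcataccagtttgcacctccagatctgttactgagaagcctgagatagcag
The match starts 239 bases before the transcript start in Ccr8 and 97 bases before the downstream transcript start in Ccr2, so the gene that fell and the gene that rose both hold it. Windows were found for 7 of the 9 receptors, 8 windows in all because Ccr6 has 2 starts. AGATAA was in 4 of these 8, against 9.99% of all 32851 windows of that length. The AP-1 motif TGANTCA was in 2 (Ccr4 and Ccr3) against 6.75% of all, the RUNX motif TGTGGT in 1 (Ccr1) against 14.05%, and TATAAA in 0 against 12.4%. The receptor windows held from 37.2% (Ccr2) to 53.6% (Ccr8) G and C bases, beside a median of 52.4% over all windows. Only the Ccr8 window lay above that median, and the part of base composition in the motif counts was not tested. The motifs were picked after the values were seen, do not overlap in these windows, and a match is only a match of letters.

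Several ligands of the receptors rose. Of 21 CC chemokine genes listed, 10 were tested, of which 6 rose and the other 4 did not pass, with a median log2 fold change of 0.68. Among all tested genes 16.5% rose. Ccl5, made by cytotoxic and effector T cells, had 49.8 and 64.3 CPM in WT against 108 and 107 CPM in cKO and rose by 0.91 (SE 0.12). Ccl3, a ligand of Ccr1, had 17.1 and 19.5 CPM against 32.1 and 30.1 CPM and rose by 0.77, and its neighbour Ccl4 rose by 0.60. Ccl6 and Ccl9, chemokines of myeloid cells that bind Ccr1, rose by 0.88 and 1.22. Ccl2, the ligand of Ccr2, rose by 0.89 from a mean of 0.733 to 1.36 CPM (edgeR adjusted p = 0.0395). This call ended with DESeq2, with the replicate block (adjusted p = 0.156) and without any 1 of the 4 libraries, and that of Ccl4 ended without WT 1. The ligands of the receptors that fell did not pass or were too low to test: Ccl22, which binds Ccr4, measured 1.35 and 1.61 CPM in WT and 1.68 and 1.77 CPM in cKO, Ccl1, which binds Ccr8, stayed under 0.7 CPM, and Ccl17 and Ccl20 were too low to test. Monocyte and neutrophil markers were higher beside these ligands, by 2.01-fold and 7.08-fold in their summed levels, and their part was not tested.

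Related receptors also went both ways. Of 7 atypical and related chemokine receptors, 5 were tested, and 2 rose, 1 fell and 2 did not pass, beside 31.6% called over all tested genes. Cx3cr1, the fractalkine receptor of monocytes and cytotoxic lymphocytes, measured 8.24 and 10.4 CPM in WT and 27.5 and 21.7 CPM in cKO, a rise of 1.40 (SE 0.16). Xcr1, the receptor that marks cross-presenting dendritic cells, rose by 1.32 from a mean of 1.78 to 4.46 CPM. Of 7 dendritic cell markers 3 rose and 4 did not pass. Ccrl2, which binds chemerin without signalling, had 36.3 ± 0.757 CPM in WT and 23.6 ± 2.79 CPM in cKO (SD, n = 2) and fell by 0.62 (SE 0.09). All 3 calls held in each alternative run.

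Genes that carry the signal of these receptors went both ways. All 31 listed genes were tested: 10 fell, 3 rose and 18 did not pass, with a median log2 fold change of -0.12. Across all tested genes 15.1% fell and 16.5% rose. The 13 calls became 6 with the replicate number as a block and 6 or 7 without any 1 library. The pan T cell markers were lower as well (7 of 10, median -0.33), and their part was not tested. Gnai2, the main inhibitory G protein subunit downstream of chemokine receptors, did not pass, at 712 and 732 CPM in WT against 729 and 719 CPM in cKO. Arrb1, a beta-arrestin that ends signalling and internalises receptors, had 107 ± 7.02 CPM in WT against 67.1 ± 0.396 CPM in cKO, where it fell by 0.67 (SE 0.06). The kinase gene Ptk2b (Pyk2) fell by 0.58 and the Rac exchange factor gene Tiam1 by 0.83. Grk3, a kinase that phosphorylates activated receptors, rose from 24.8 ± 2.19 to 48.9 ± 2.96 CPM, by 0.98 on the log2 scale (SE 0.08). These 4 changes had edgeR adjusted p between 0.00352 and 0.00457.

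A further pair of lists holds genes of the settings in which these receptors are known. Of 14 genes of Treg cells in non-lymphoid tissues, where Ccr8 and Ccr4 are also known, 10 fell, 2 rose and 2 did not pass. Their median log2 fold change was -0.69, and over all tested genes 15.1% fell and 16.5% rose. The pan T cell markers (7 of 10 lower, median -0.33) and Foxp3 (-0.59) were lower as well, and their part was not tested. Il1rl1, Rora and Tnfrsf9 fell by 2.23, 0.95 and 0.91, while Prdm1, which encodes Blimp-1, rose by 0.85. Of 10 genes of lymphoid homing and central Treg cells, where Ccr7 belongs, 2 rose, 1 fell and 7 did not pass (median 0.03). Tcf7, a transcription factor gene of central T cells, fell by 0.57. Lef1 rose by 0.17 (edgeR adjusted p = 0.0469), a call lost in 8 of 12 alternatives (RLE scaling, DESeq2, no filter, the replicate block and without any 1 library), and Il7r had -0.14 and did not pass. S1pr1, the receptor for exit from lymphoid organs, was chosen after its values were seen: it had 631 and 484 CPM in WT and 471 and 597 CPM in cKO, the same order of libraries as Ccr7.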

How the data were processed

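The deposited values are raw read counts per gene of 4 libraries, in 1 table. The genome build was mm10, per the submitters' processing notes. Aligner, counting tool, annotation, library kit and strand setting are not given here. Genes were kept with filterByExpr (minimum count 10, minimum total 15) and compared by edgeR 4.0.16 in R 4.3.3 (glmQLFit, glmQLFTest, TMM, design of group alone, 2-sided, Benjamini-Hochberg over all genes tested, threshold 0.05). The SE was derived from the log2 fold change and its F statistic, and 95% intervals use it. Intervals from counts are exact and cover counting error only. Alternatives were DESeq2 1.42.0, limma-voom (limma 3.58.1), scaling by RLE or by the upper quartile, no filter, 1 CPM in 2 libraries, the replicate number as a block and leaving out each library. The 12 alternatives also count a block of crossed numbers (WT 1 with cKO 2, WT 2 with cKO 1), chosen after seeing the data. Exon lengths came from GENCODE M21. The members and the gene lists (7 pathway, 13 cell type) were chosen with earlier results of these data known. Named were all 9 receptors, up to 4 genes of smallest p per pathway list with every ligand and related receptor that passed, the 3 genes nearest in pattern to the largest rise and fall, and up to 2 most abundant markers per cell type list. A gene that this rule names is not reported here. The 4 T cell receptor gamma and delta segments listed as markers were absent from the table, as was Ccl26.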

Additional observations from a re-analysis of the deposited data

How the results depend on the processing

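The counts of receptors that rose and fell, 2 and 3, were the same in 10 of the 12 alternatives. Without a filter Ccr3 was called lower as well. All genes called numbered 4380, 2876 with DESeq2, and between 1869 and 2747 when 1 library was left out. RLE scaling gave 2133 higher and 2212 lower genes and upper-quartile scaling 2546 and 1877, beside 2292 and 2088, with the same receptor calls under both. Same-numbered libraries deviated in opposite directions (r = -0.52 over 6931 genes). With 2 libraries per group the crossed value is fixed at 0.52, so this cannot show whether the numbers pair the samples. With the replicate number as a block 2292 genes and 5 receptors were called. With crossed numbers, chosen after seeing the data, 6713 genes and 7 receptors were called, Ccr3 (lower) and Ccr9 (higher) added. Signs turned for 4 genes that did not pass: leaving out 1 library gave Ccr7 from -0.47 to 0.27 (above 0 without WT 1 and, at 0.20, without cKO 1), S1pr1 from -0.24 to 0.14 (above 0 without WT 1 and, at 0.10, without cKO 1), Ccr10 from -0.97 to 0.36 (above 0 without WT 2) and Cntnap1 from -0.70 to 0.19 (above 0 without cKO 2 and, at 0.17, without WT 2). The causes were not tested. With 2 libraries per group the intervals for Ccr7, Ccr3 and Ccr10 were wide. For each of them the libraries of a group differed beyond counting error, and Ccr10 had only 33 to 75 counts.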

Other observations

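Some genes followed the receptors closely over the 4 libraries, by the distance between log2 CPM values less their own mean, over 9900 genes that reached 5 CPM on average. With 4 libraries in 2 groups this is a description only. Nearest to Ccr8 was Mir155hg, the host gene of the microRNA miR-155, with 9.08 and 7.74 CPM in WT and 2.68 and 3.88 CPM in cKO (log2 fold change -1.35). Iffo2 had 83.8 and 70.1 CPM in WT and 26.5 and 33.6 CPM in cKO, and Marchf3, a ubiquitin ligase gene, had -1.32 on the log2 scale. In all 3, as in Ccr8, WT 1 and cKO 2 were the higher libraries of their groups. Nearest to Ccr1 were Ntn1, which encodes the guidance cue netrin 1, with 5.91 and 6.14 CPM in WT and 15.3 and 15.5 CPM in cKO, the annexin gene Anxa3 (log2 fold change 1.33) and the neuroligin gene Nlgn2 (1.29).

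Of 10 partners of gut and skin homing, 1 rose, 2 fell and 7 did not pass, beside 31.6% called over all genes. Without the filter on low counts 7 of the 10 were called. Gpr15, a receptor for homing to the large intestine, rose from 10.95 ± 1.31 to 21.7 ± 1.15 CPM (SD, n = 2), by 0.99 on the log2 scale (edgeR adjusted p = 0.00457). Itgb7, the integrin chain for gut entry that works beside Ccr9, fell by 0.40 while Ccr9 did not pass. Gpr55, a lipid receptor, fell from 16.6 ± 0.872 to 6.12 ± 0.193 CPM (log2 fold change -1.44). Itgae, which binds E-cadherin, had -0.25 and did not pass (edgeR adjusted p = 0.0518), but was called lower with RLE scaling, without a filter and without WT 1.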
